A study of Glycine soja with 14 samples.

Results

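Root tips of wild soybean (Glycine soja) that had stood for 12 h in NaHCO3 were compared with unstressed root tips, using 4 of the 14 arrays of a time course. The members of the comparison were the 2 arrays labelled 12 h and the 2 arrays of the unstressed condition (0 h), and the features were the soybean probe sets of the array. Of 37593 soybean probe sets, 28566 lay above a background set from the pathogen probe sets of the same arrays and were tested. The study followed roots of the line G07256 for 24 h in 50 mmol/L NaHCO3 at pH 8.5, with 2 arrays at each of 7 times, each array from a pool of 3 plants, and the tissue was the 3 cm apex of the root. The seedlings were 21 days old by the sample labels and 19 days by the methods, and the day length was 12 h of light by the labels and 16 h by the methods. All groups shared the line, the age and the culture. No unstressed root harvested 12 h later was analysed here, so the length of the stress and the time of day cannot be told apart in any value below. The chip, the Affymetrix Soybean Genome Array, was designed on cultivated soybean (Glycine max).

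Bicarbonate in the root medium raises the pH and adds sodium at once, so that a root meets alkalinity and salt together. Alkalinity lowers the solubility of iron and phosphate, and roots are known to answer it with organic acid synthesis and proton pumping. Plant roots also carry a circadian clock. In it the morning MYB factors of the LHY and CCA1 type repress genes of the evening complex, which has LUX as one member. Outputs of the clock include genes of the chloroplast, of water channels and of hormone synthesis.

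At 12 h, transcripts of the morning clock factors LHY and LCL3, 8 of 14 photosynthesis probe sets, 16 of 28 for NAC factors and 12 of 25 for aquaporins were lower than at 0 h. The evening clock component LUXC and 6 of 7 probe sets of expansins and xyloglucan transferases were higher. Calls came from a limma fit of all 14 arrays and required p under 0.05 together with p under 0.15 after Benjamini-Hochberg adjustment, which are the cut-offs in the methods. By that rule 2271 probe sets were higher at 12 h (7.95% of those tested) and 4673 were lower (16.4%), together 6944 (24.3%). A two-sample t-test, the kind named in the methods, called 6 on the same log2 values with the same limits and Benjamini-Hochberg adjustment. It gave 4364 probe sets at an unadjusted p under 0.05. This version, called the methods' t-test below, did not repeat the study's filter by Present calls. The study's own count of changed probe sets at 12 h was far larger than 6. Without 0 h replicate 1 the limma fit called 1043 higher and 3103 lower, and without 0 h replicate 2 it called 1316 higher and 2641 lower. Large differences were mostly decreases. Among the probe sets called, 586 were more than 2-fold higher and 2401 more than 2-fold lower, and at more than 4-fold the numbers were 51 and 517. The median log2 change was -0.04 and the median standard error (SE) of a log2 change was 0.24.

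**Figure D1:**
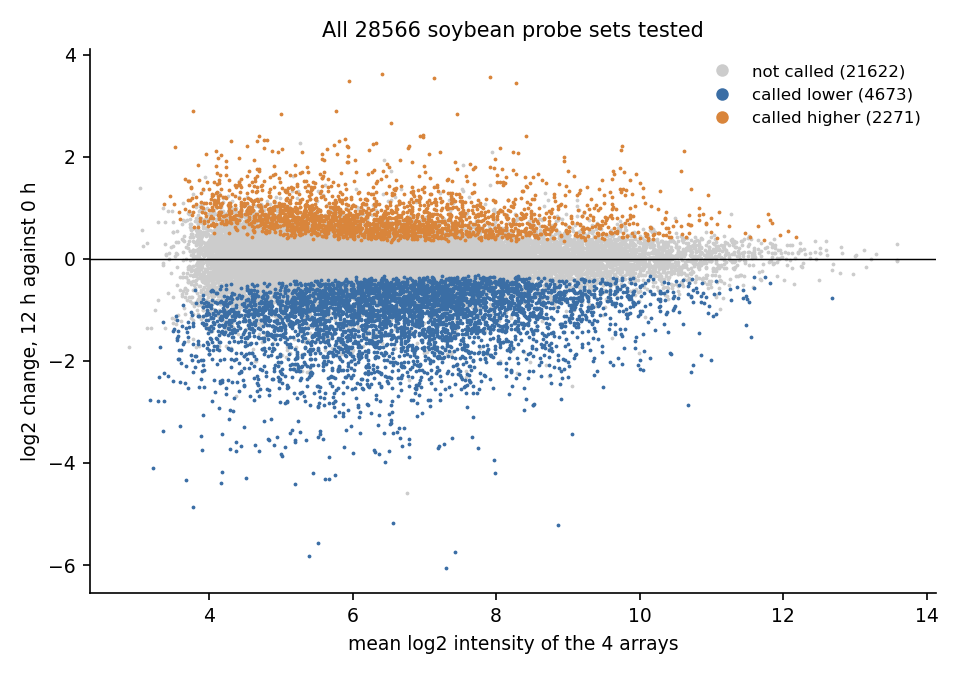
Log2 change at 12 h against 0 h (vertical axis) by the mean log2 intensity of the 4 arrays (horizontal axis), with 1 point per soybean probe set tested. The 2271 points called higher and the 4673 called lower are spread over most of the intensity range, and the decreases reach further from 0 (to -6.06) than the increases (to 3.62).

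How many probe sets lay on each side depended on the scaling between times, for which the authors had set only the median probe intensity of 1 array per time equal. Decreases made up 67.3% of the calls in the deposited scaling, 48.6% (4070 higher, 3851 lower) after centring each array on its median and 47.1% (4386 higher, 3901 lower) after quantile normalization, and the median log2 change moved to 0.07 and 0.08. Among called probe sets more than 2-fold apart, decreases made up 80.4%, 69.9% and 68.9% in the 3 scalings. A change of about 0.1 on the log2 scale is therefore within the choice of scaling.

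The 12 h arrays were less alike than the 0 h arrays. The log2 values of the replicates correlated with r = 0.971 at 0 h and 0.931 at 12 h, a correlation over probe sets and not over independent samples. At 12 h, 130 probe sets were more than 8-fold (3 on the log2 scale) higher in replicate 1 than in replicate 2 and 5 were higher the other way, against 0 and 6 at 0 h. Replicate 2 at 12 h was also low in spiked hybridization controls, with a mean log2 level of 9.29 against 10.52 in replicate 1 and 10.55 and 10.27 at 0 h, and in 48 probe sets of soybean rRNA, with a mean log2 level of 4.60 against 7.81 in replicate 1 and 7.62 and 7.76 at 0 h. The spiked poly-A controls lay at 6.44 and 6.35 at 12 h and at 5.60 and 5.64 at 0 h. The part of these differences in the results was not tested. The count of calls without replicate 2 at 12 h was 1543 higher and 4344 lower. Among the probe sets with a gap of more than 8-fold between the 12 h replicates, 113 of 135 were not called and the rest were called lower. Over all probe sets tested, 24.3% were called in either direction and 16.4% lower. A gap between replicates also raises the SE of a probe set, so the count cannot show how far these gaps shaped the calls.

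Genes of the circadian clock were found in both directions. Of 6 probe sets of named clock genes 3 were called lower and 1 higher, and all 6 are given here. The shares were 50% and 16.7%, against 16.4% and 7.95% of all probe sets. LHY, the morning factor, was measured by 2 probe sets. The first read 327 and 293 in the 0 h arrays and 25.4 and 18.9 in the 12 h arrays, in units of the deposited intensity, and it fell by 3.82 ± 0.20 (SE) on the log2 scale (adjusted p = 1.01e-05, limma). In the second the intensities were 570.1 and 565 at 0 h and 50.2 and 48.8 at 12 h, and the fall was 3.52 ± 0.18 (adjusted p = 1.01e-05). Both probe sets of LHY were low in both 12 h arrays, with no overlap between the times. Over all probe sets tested, 31% lay lower at 12 h without overlap and 23.4% higher. LCL3, a gene of the same LHY and CCA1 type, read 45.3 and 48.8 at 0 h and 5.22 and 10.8 at 12 h. The 12 h values lay under the background of 15.1 (the 95th percentile of the pathogen probe sets), so LCL3 was at least 3.12-fold lower (adjusted p = 0.00632). Against this group LUXC, named for the evening complex factor LUX, went from 48.9 and 54.4 to 237 and 225, a rise of 2.16 ± 0.27 (adjusted p = 0.000862). Its 4 arrays fell into 2 narrow groups. ZTL1, a blue-light receptor that targets clock proteins for degradation in Arabidopsis, did not pass the test in either probe set. One read 52.3 and 40.7 at 0 h and 34.9 and 17.8 at 12 h (adjusted p = 0.185), and the other 117 and 119 at 0 h and 101 and 137 at 12 h (adjusted p = 0.995), where the groups overlapped.

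Among the 15 largest falls of annotated genes were 3 MYB factors, MYB134, MYB114 and MYB186. MYB134 read 325 and 307 at 0 h and 4.46 and 7.02 at 12 h, at least 21.0-fold lower (adjusted p = 5.86e-07). MYB114 went from 84.1 and 81.0 to 3.38 and 4.58, at least 5.48-fold lower (adjusted p = 4.40e-05). Each 12 h array of both genes lay under the background, so the size of the fall is known only as a bound. MYB186 fell by 4.32 ± 0.40, from 241 and 214 to 19.9 and 6.48 (adjusted p = 0.000206). MYB118 read 147 and 105 at 0 h and 20.4 and 23.6 at 12 h, and it fell by 2.50 ± 0.20 (adjusted p = 0.000103).

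In light signalling, of 7 probe sets 4 were called lower (57.1% against 16.4% of all probe sets) and none higher. COL10, a CONSTANS-like B-box factor, fell by 2.52 ± 0.20 (adjusted p = 0.000103), from 1905 and 1562 to 294 and 306, and its 12 h replicates were nearly equal. A transcript described as salt-tolerance protein, whose Arabidopsis namesake is a B-box factor of light signalling, read 194 and 229 at 0 h and 7.93 and 33.7 at 12 h (fell by 3.69 ± 0.55, adjusted p = 0.00219). COP10, a component of light-regulated protein degradation, fell by 0.91 ± 0.20 from 149 and 158 to 81.7 and 81.2 (adjusted p = 0.0140). CRY2B, a cryptochrome, read 34.7 and 49.7 at 0 h and 12.4 and 26.1 at 12 h (adjusted p = 0.0632), a call that was lost without 0 h replicate 2 (adjusted p = 0.287) and without 12 h replicate 1 (adjusted p = 0.281). The fourth call of the list was STF2, and without 0 h replicate 2 the list held 2 calls.

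Transcripts of chloroplast proteins were measured in the unstressed root tips, and CAB3 had the largest fall among all probe sets tested. In the photosynthesis list 8 of 14 probe sets were called lower (57.1% against 16.4% of all probe sets) and none higher. The 8 belonged to 4 of the 7 gene symbols tested. The median log2 change was -1.91 against -0.04 over all probe sets tested. The median was -1.25 without 12 h replicate 1 and -2.58 without 12 h replicate 2, and 1 probe set was called higher without 0 h replicate 2. CAB3, a chlorophyll a/b-binding protein of the light-harvesting antenna, read 1431 and 1157 at 0 h and 14.8 and 25.3 at 12 h in 1 probe set, and it fell by 6.06 ± 0.33 or 66.5-fold (adjusted p = 1.22e-05). In another probe set it read 1535 and 1032 at 0 h and 21.7 and 25.6 at 12 h and fell by 5.74 ± 0.32. The next read 3529.8 and 2249 at 0 h and 101 and 57.9 at 12 h and fell by 5.21 ± 0.41. The 12 h arrays of these 3 probe sets lay far below the 0 h arrays, and the remaining probe set of the symbol was not called, at 69.5 and 77.7 and then 58.8 and 71.8. RCA14, a Rubisco activase, fell by 3.77 ± 0.56, from 316 and 359 to 11.2 and 54.4 (adjusted p = 0.00227), with 12 h replicates far apart. RCAALPHA, named for an activase isoform, fell by 3.42 ± 0.59. Chloroplast ferredoxin I (so described in the annotation), which passes electrons on from photosystem I, read 97.3 and 147 at 0 h and 6.47 and 13.4 at 12 h, at least 7.94-fold lower (adjusted p = 0.00136). PSAD and PETC, a photosystem subunit and an electron carrier, were not called in any of their 4 probe sets. The only leaf marker of 8 with a probe set here was CAB3 itself, whose probe sets summed to 6591 and 4553 at 0 h and to 201.9 and 187 at 12 h, and the part of leaf-type transcripts in other results was not tested. Of 10 root markers only NRT2 had a probe set, at 654.9 and 758.6 at 0 h and 914 and 1145 at 12 h, and of 10 nodule markers none had. In bulk tissue, fewer cells of a type and less RNA per cell cannot be told apart.

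**Figure D2:**
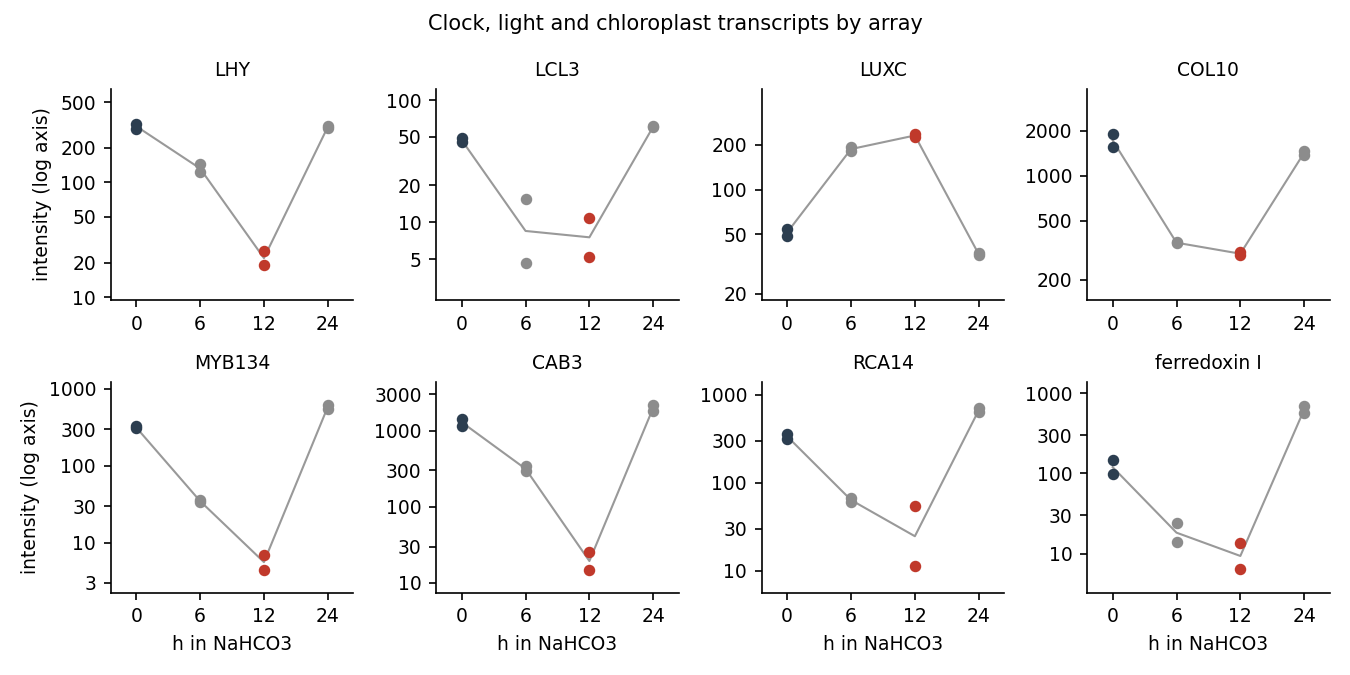
Deposited intensity (vertical axis, logarithmic) of 8 probe sets in roots after 0, 6, 12 and 24 h in NaHCO3 (horizontal axis, evenly spaced), 1 point per array, with dark points for 0 h, red for 12 h and grey for 6 and 24 h, and a line through the geometric means. The 12 h arrays of LHY, LCL3, COL10, MYB134, CAB3, RCA14 and ferredoxin I lie below both 0 h arrays and both 24 h arrays, and those of LUXC lie above.

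Wall-loosening genes were higher at 12 h. Expansins loosen the bonds between cellulose and xyloglucan, and xyloglucan endotransglycosylases cut and rejoin xyloglucan. Of 7 probe sets of named expansins and xyloglucan transferases 6 were called higher and none lower, with a median log2 change of 1.50, and the number called higher lay between 4 and 5 when any 1 of the 4 arrays was left out. The 6 rises belonged to 4 of the 5 gene symbols tested and made up 85.7% of the list, against 7.95% of all probe sets. CIM1, a cytokinin-induced expansin, read 88.2 and 55.3 at 0 h and 537 and 1274 at 12 h, an increase of 3.57 ± 0.57 (adjusted p = 0.00336). It was the largest rise among the annotated probe sets, with 12 h replicates further apart than those at 0 h. A transcript described as xyloglucan endo-transglycosylase went from 83.2 and 105 to 966 and 1075, a rise of 3.45 ± 0.19 or 10.9-fold (adjusted p = 1.22e-05), with close replicates, and this probe set was added after its values were seen. EXP1 rose by 1.76 ± 0.24, from 96.0 and 129.6 to 415 and 342 (adjusted p = 0.00131), and EXP2 by 0.95 ± 0.15, from 69.4 and 63.8 to 138 and 119.9 (adjusted p = 0.00314). XTH1, the remaining member, did not pass the test (log2 change 0.15).

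Other carbohydrate enzymes stood among the 15 largest rises. A glycosyl hydrolase of family 9, the family of endoglucanases, read 30.5 and 20.8 at 0 h and 149.8 and 103 at 12 h, an increase of 2.30 ± 0.26 (adjusted p = 0.000529). An alpha-D-xylosidase precursor, an enzyme that trims xyloglucan, rose by 2.06 ± 0.31, from 34.7 and 21.1 to 134 and 94.2 (adjusted p = 0.00245). A UDP-glucosyltransferase went from 14.6 and 27.4 to 182 and 122 (2.90 ± 0.49, adjusted p = 0.00449). TUBB3, a beta-tubulin, was the only 1 of 10 cytoskeleton probe sets that was called, with 185 and 253 at 0 h and 428 and 570.1 at 12 h (an increase of 1.19 ± 0.26, adjusted p = 0.0140). Of 9 probe sets for cellulases, polygalacturonase and its inhibitor 1 was called higher and none lower, and 4 were called higher after quantile normalization. The 1 call was lost without 0 h replicate 1 and without 12 h replicate 2.

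GASA peptides, small cysteine-rich secreted proteins first known as gibberellin-regulated, formed a list that was put together after the values were seen. Of its 13 probe sets 5 were called higher and 1 lower. The shares were 38.5% and 7.69%, against 7.95% and 16.4% of all probe sets. GASA14 read 134 and 163 at 0 h and 767 and 799.6 at 12 h, an increase of 2.41 ± 0.18 (adjusted p = 8.96e-05), and its other 2 probe sets rose as well. GASA34 rose by 2.38 ± 0.35, from 46.6 and 65.2 to 344 and 240.1 (adjusted p = 0.00204). A transcript described as GASA5-like went from 390.1 and 416 to 1559 and 2229 (adjusted p = 0.00178). GASA21 went the other way, from 143 and 161 to 66.9 and 45.1 (adjusted p = 0.0376), a call lost without 0 h replicate 2 (adjusted p = 0.162) and without 12 h replicate 2 (adjusted p = 0.163).

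**Figure D3:**
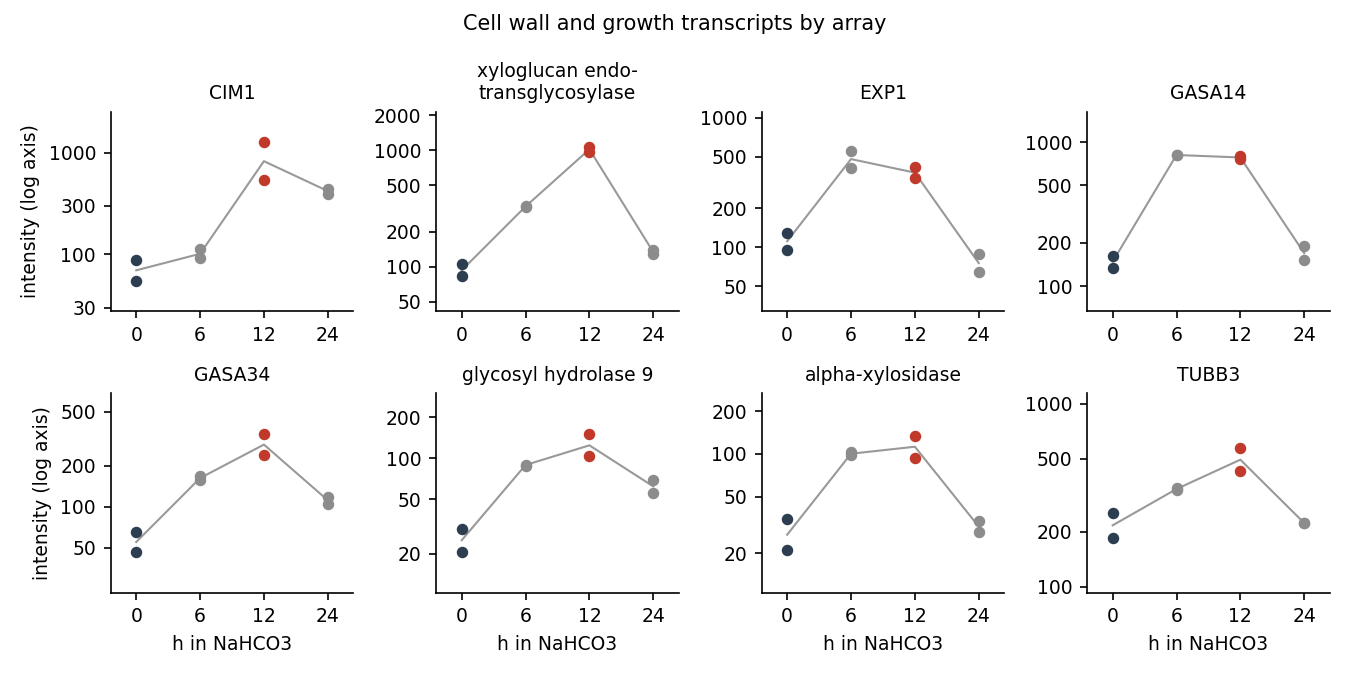
Deposited intensity (vertical axis, logarithmic) of 8 wall and growth probe sets after 0, 6, 12 and 24 h in NaHCO3 (horizontal axis, evenly spaced), 1 point per array, with dark points for 0 h, red for 12 h and grey for 6 and 24 h, and a line through the geometric means. Both 12 h arrays of every gene shown lie above both 0 h arrays, by 1.19 (TUBB3) to 3.57 (CIM1) on the log2 scale.

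Larger shares of the transcription factor families than of all probe sets (16.4%) were called lower. Of 90 probe sets of WRKY factors, which bind the W-box of defence and senescence genes, 38 fell and 1 rose, and the median log2 change was -0.37. The 38 falls belonged to 19 of the 46 gene symbols tested. WRKY56 read 465 and 406 at 0 h and 113 and 109.7 at 12 h (fell by 1.96 ± 0.23, adjusted p = 0.000618), and WRKY27 217 and 207 at 0 h and 59.6 and 65.9 at 12 h (fell by 1.76 ± 0.16, adjusted p = 0.000206). WRKY24 was the 1 factor called higher, from 17.0 and 18.2 to 29.7 and 32.5, a call that was lost without 0 h replicate 1 (adjusted p = 0.191) and without 12 h replicate 2 (adjusted p = 0.155). With 1 array left out, between 28 and 34 WRKY probe sets were called lower.

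NAC factors, which act in stress, senescence and root development, had 16 of 28 probe sets lower and none higher, with a median of -1.09. NAC19 read 216 and 223 at 0 h and 52.4 and 47.9 at 12 h (fell by 2.13 ± 0.33, adjusted p = 0.00279). NAC018 went from 750.0 and 833 to 175 and 216, and it fell by 2.02 ± 0.19 (adjusted p = 0.000206). All but 1 of the 28 probe sets had a log2 change below 0, but the number called depended on single arrays. Leaving out 0 h replicate 2 gave 4 calls. There were 10 when 0 h replicate 1 was omitted, 10 when 12 h replicate 1 was and 12 when 12 h replicate 2 was.

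Of 72 MYB probe sets 27 fell and 3 rose (median -0.26), and of 81 bZIP probe sets 26 fell and 3 rose (median -0.24). The omission of 0 h replicate 2 gave 13 and 15 called lower, and that of 0 h replicate 1 gave 16 and 14. BZIP59 read 389 and 463 at 0 h and 107 and 83.0 at 12 h (fell by 2.17 ± 0.31, adjusted p = 0.00193). BZIP80 went up from 187 and 187 to 287 and 324 (a rise of 0.71 ± 0.17, adjusted p = 0.0249), and so did MYB57, from 41.2 and 31.9 to 70.3 and 68.3 (a rise of 0.94 ± 0.21, adjusted p = 0.0177).

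AP2/ERF factors, the family of ethylene and dehydration response regulators, had 4 of 14 probe sets lower and none higher. DREB5 read 146 and 99.1 at 0 h and 8.90 and 8.14 at 12 h, at least 8.0-fold lower (adjusted p = 9.00e-05). DREB1 fell by 1.59 ± 0.34, from 272 and 266 to 93.7 and 85.8 (adjusted p = 0.0143). A transcript described as a pathogenesis-related ERF factor, which has no family symbol and is outside the list, went from 297 and 334 to 6.24 and 7.20, at least 20.9-fold lower (adjusted p = 0.000183).

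Heat shock genes were lower in 14 of 27 probe sets and higher in 1 (median -0.48), shares of 51.9% and 3.70% against 16.4% and 7.95% of all probe sets. Without 0 h replicate 2 the falls numbered 9, and the rise was lost without that array and without 12 h replicate 2. HSP23.9, a small heat shock protein, read 342 and 252 at 0 h and 36.0 and 51.7 at 12 h (fell by 2.77 ± 0.37, adjusted p = 0.00119). HSF-01, a heat stress factor, fell by 1.70 ± 0.24, from 451 and 462 to 121 and 163 (adjusted p = 0.00177). GOLS, galactinol synthase, which makes the galactosyl donor for raffinose sugars and is itself a target of heat stress factors in Arabidopsis, went from 861 and 689 to 40.4 and 87.2, and it fell by 3.70 ± 0.46 (adjusted p = 0.000860).

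**Figure D4:**
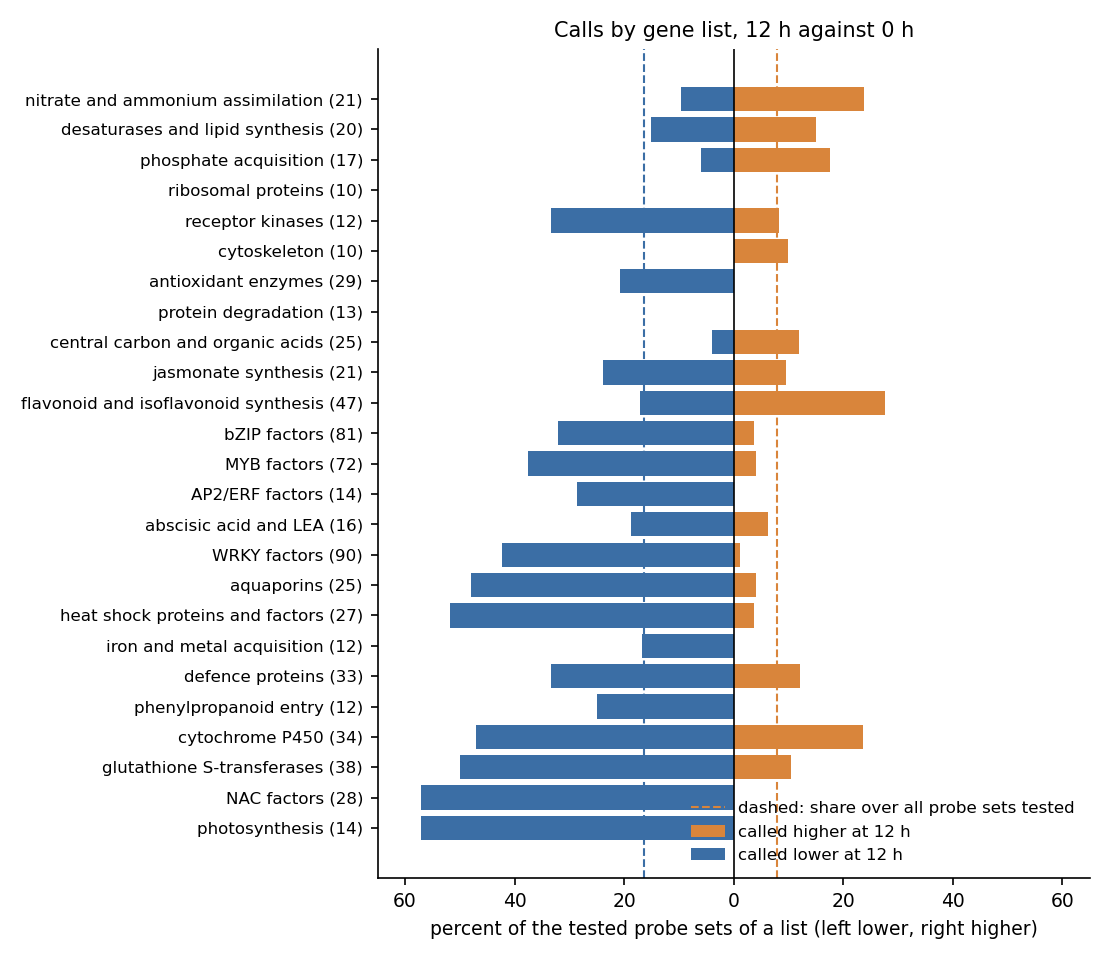
Percent of the tested probe sets of each gene list that were called lower (left) or higher (right) at 12 h against 0 h, for the lists with at least 10 probe sets tested (number in brackets), ordered by their median log2 change. The dashed lines mark the shares over all probe sets tested, 16.4% lower and 7.95% higher, and the share lower is 57.1% for photosynthesis, 57.1% for NAC factors and 50.0% for glutathione S-transferases.

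Jasmonate is made from linolenic acid by lipoxygenase, allene oxide synthase and allene oxide cyclase, and ZIM-motif (JAZ) proteins repress its response. Of 21 probe sets of the synthesis enzymes 5 fell and 2 rose, 23.8% and 9.52% against 16.4% and 7.95% of all probe sets. The falls numbered 8 without 12 h replicate 1 and 3 without 0 h replicate 2. AOS1, an allene oxide synthase, read 211 and 333 at 0 h and 35.9 and 30.4 at 12 h (fell by 3.01 ± 0.28, adjusted p = 0.000217), and AOS2 422 and 535 at 0 h and 96.5 and 62.2 at 12 h (fell by 2.62 ± 0.32, adjusted p = 0.000771). The other members called lower were another probe set of AOS1 and 2 of AOC3, an allene oxide cyclase. LOX7, a lipoxygenase, was called higher in 2 of its probe sets, and neither call remained without 0 h replicate 1 (adjusted p = 0.398 and 0.440) or without either 12 h array (adjusted p from 0.151 to 0.265). The transcript described as ZIM motif family protein read 257 and 459 at 0 h and 27.0 and 33.0 at 12 h, and it fell by 3.52 ± 0.33 (adjusted p = 0.000210). LOXB1, a lipoxygenase, was not called, and in 1 of its probe sets the 12 h replicates read 1926 and 19.

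Gibberellin genes were lower in 5 of 8 probe sets (62.5% against 16.4% of all probe sets). GA2OX6 and GA2OX8 encode gibberellin 2-oxidases, which inactivate the hormone. GA2OX6 read 43.9 and 79.3 at 0 h and 10.9 and 10.9 at 12 h, at least 3.92-fold lower (adjusted p = 0.00486). GA20OX3, which acts earlier and makes the precursor of active gibberellin, was also lower, with 84.7 and 78.0 at 0 h and 36.3 and 25.1 at 12 h (adjusted p = 0.0880), so enzymes of both synthesis and inactivation were lower. GAI1, a DELLA repressor, rose by 0.62 ± 0.15, from 202 and 217 to 299 and 346 (adjusted p = 0.0226). Only 2 of the 5 falls were called without 0 h replicate 2, 2 without 12 h replicate 2 and 3 without 0 h replicate 1. The ethylene list had 3 of 5 probe sets lower, all of ACS1, an ACC synthase, and none was called without either 0 h array or without 12 h replicate 1. None of 6 auxin response probe sets passed the test in the limma fit, 1 had an unadjusted p under 0.05 by limma and by the methods' t-test, 1 was called higher after quantile normalization or centring, and 2 were called lower without 12 h replicate 1.

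Water channels, which let water cross membranes, were mostly lower or not called. Of 25 aquaporin probe sets 12 fell and 1 rose, with a median of -0.48. The shares were 48% and 4%, against 16.4% and 7.95% of all probe sets. The falls belonged to the plasma membrane intrinsic proteins (PIP). PIP1-8 read 3660.3 and 3431 at 0 h and 756 and 936 at 12 h (fell by 2.08 ± 0.16, adjusted p = 0.000103), PIP2-9 went from 5408 and 4832 to 1811 and 1695 (fell by 1.54 ± 0.18, adjusted p = 0.000704), and PIP2-10 from 307 and 272 to 46 and 89.2 (fell by 2.17 ± 0.31, adjusted p = 0.00180). In 1 of its probe sets PIP2-6 fell by 0.76 ± 0.14, from 8891 and 8206 to 5065 and 5002. PIP2-1 was not called, with log2 changes of 0.46 and 0.50 in its 2 probe sets. NIP1-8, of the nodulin 26-like group, was the 1 member called higher, and the call was lost without any 1 of the 4 arrays (adjusted p from 0.165 to 0.374). After quantile normalization or centring 4 aquaporin probe sets were higher and 13 or 12 lower.

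Among ion transporters none of 7 probe sets of NHX1, a vacuolar sodium and proton antiporter, and CLC1, a chloride channel, passed the test in the limma fit (1 had an unadjusted p under 0.05 by limma and 1 by the methods' t-test), and the log2 changes of the 4 NHX1 probe sets lay between -0.43 and -0.29. Of the 7, 2 were called lower without 12 h replicate 1 and 1 higher after quantile normalization. Phosphate genes had 3 of 17 probe sets higher, 1 without 0 h replicate 1 and none without 12 h replicate 2, and 1 lower. The phosphate shares were 17.6% higher and 5.88% lower, against 7.95% and 16.4% of all probe sets. PT01, a phosphate transporter, read 829 and 562 at 0 h and 208 and 279.6 at 12 h (fell by 1.50 ± 0.35, adjusted p = 0.0209). The ferritin SFERH-3, an iron store, fell by 1.85 ± 0.26, from 449 and 437 to 98.5 and 153 (adjusted p = 0.00149). Iron genes called lower numbered 2 of 12 (16.7%, near the 16.4% of all probe sets), but 7 without 12 h replicate 2.

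In nitrogen assimilation rises outnumbered falls, with 5 of 21 probe sets higher and 2 lower, and 3 and 2 rises without 0 h replicate 1 and 2. The shares were 23.8% higher and 9.52% lower, against 7.95% and 16.4% of all probe sets. GS1alpha, a cytosolic glutamine synthetase, read 51.1 and 44.4 at 0 h and 129 and 148 at 12 h (an increase of 1.53 ± 0.26, adjusted p = 0.00478). A second probe set of it went from 603 and 585 to 1133 and 934. AMT1.3, an ammonium transporter, rose by 1.32 ± 0.32, from 256 and 169.7 to 429 and 629 (adjusted p = 0.0225, and 0.155 without 0 h replicate 2). GDH1, glutamate dehydrogenase, was the gene called lower, from 753 and 788 to 509.5 and 372 (adjusted p = 0.0704), and that call was lost without either 0 h array (adjusted p = 0.190 and 0.230) and without 12 h replicate 2 (adjusted p = 0.269).

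The kinases of phosphoenolpyruvate carboxylase, which switch on the enzyme that feeds malate synthesis, went in different directions. PPCK1 fell by 2.50 ± 0.30, from 180.2 and 175 to 28.3 and 34.9 (adjusted p = 0.000747). PPCK2 rose by 1.49 ± 0.17, from 164 and 167 to 413 and 522 (adjusted p = 0.000590). PPCK3 read 412 and 912 at 0 h and 1156 and 1852 at 12 h (adjusted p = 0.0648), a rise whose call was lost without 0 h replicate 1 (adjusted p = 0.363) and without 12 h replicate 2 (adjusted p = 0.256). All other members of the 25 probe sets for central carbon and organic acids were not called, apart from 1 of MDH-1, malate dehydrogenase, and the falls numbered 6 without 12 h replicate 1. A probe set of PEPC4, a carboxylase, read 81.0 and 69.0 at 0 h and 89.4 and 3.47 at 12 h and was not called (adjusted p = 0.244), with groups that overlapped.

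Flavonoid genes were called in both directions. Of 47 probe sets 13 were higher (27.7% against 7.95% of all probe sets). The 8 that were lower made up 17.0%, near the 16.4% of all probe sets. CHS1, chalcone synthase, the entry enzyme, read 312 and 401 at 0 h and 121 and 68.9 at 12 h (fell by 1.95 ± 0.41, adjusted p = 0.0126). Chalcone synthase is a multigene family, so probe sets may share signal among its members. G4DT, a prenyltransferase of glyceollin synthesis, the phytoalexin branch, went from 69.7 and 56.9 to 28.4 and 12.8 (fell by 1.72 ± 0.36, adjusted p = 0.0116), and CYP93A1, a pterocarpan hydroxylase, from 109.6 and 87.5 to 41.5 and 25.1 (fell by 1.60 ± 0.32, adjusted p = 0.00932). CYP93E1 gave the 3 largest rises of the list. It encodes a hydroxylase of beta-amyrin in soyasaponin synthesis, a triterpenoid and not a flavonoid step, and read 363 and 587 at 0 h and 1876 and 1317 at 12 h (an increase of 1.77 ± 0.35, adjusted p = 0.00992). Chalcone isomerase (CHI1B1, CHI2-A) was called higher in 4 probe sets with log2 changes from 0.63 to 1.18. The 13 rises became 7 without 0 h replicate 1 or 2 and 8 without 12 h replicate 1, which also raised the falls from 8 to 15.

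Among 34 cytochrome P450 probe sets 16 were lower and 8 higher, against 16.4% and 7.95% of all probe sets, and 4 higher without 0 h replicate 1. CYP82A3 fell by 1.88 ± 0.24, from 3966 and 3209 to 1064 and 886 (adjusted p = 0.000901), and CYP71D10, a flavonoid hydroxylase, by 1.84 ± 0.25, from 144 and 122 to 35.6 and 38.8 (adjusted p = 0.00136). CYP72A67 rose by 1.46 ± 0.31, from 245 and 325 to 956 and 633 (adjusted p = 0.0125).

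Detoxification and defence genes included both directions. Of 38 probe sets of glutathione S-transferases, which conjugate toxic compounds to glutathione, 19 fell and 4 rose (median -0.71), and the falls stayed between 18 and 21 when any 1 array was left out. The shares were 50.0% lower and 10.5% higher, against 16.4% and 7.95% of all probe sets. GST3 read 517 and 497 at 0 h and 79.9 and 117 at 12 h (fell by 2.39 ± 0.24, adjusted p = 0.000270), and GSTU9 670.1 and 676 at 0 h and 168 and 175 at 12 h (fell by 1.97 ± 0.26, adjusted p = 0.00116). GSTU28 was an exception, from 178 and 171 to 483 and 638 (a rise of 1.67 ± 0.30, adjusted p = 0.00595). PDR12, an ABC transporter, read 117 and 91.0 at 0 h and 8.91 and 9.44 at 12 h, at least 6.87-fold lower (adjusted p = 0.000407). KTI-3, a Kunitz trypsin inhibitor, was higher, from 430.4 and 698 to 1672 and 1519.9 (adjusted p = 0.0403, and 0.222 without 0 h replicate 1). Of 29 antioxidant probe sets 6 fell (20.7%, near the 16.4% of all probe sets) and none rose, and 1 was called lower without 0 h replicate 2. GLYI-23, a glyoxalase, was among the falls, at 133 and 155.4 at 0 h and 50.5 and 37.8 at 12 h (adjusted p = 0.00468).

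Of 33 defence probe sets 11 fell and 4 rose, 33.3% and 12.1% against 16.4% and 7.95% of all probe sets. The falls numbered 4 to 8 with 1 array left out, and no rise was called without 0 h replicate 1. NDR1b, named for a defence signalling protein of Arabidopsis, read 82.5 and 97.8 at 0 h and 28.7 and 37.0 at 12 h (adjusted p = 0.00500). The receptor kinases had 4 of 12 probe sets lower and 1 higher, and 1 was called lower without 0 h replicate 2, 1 without 12 h replicate 2 and 2 without 0 h replicate 1. The receptor kinase shares were 33.3% lower and 8.33% higher, the second near the 7.95% of all probe sets. NARK, the receptor that limits nodule number, read 235 and 180.0 at 0 h and 121 and 106 at 12 h, and fell by 0.86 ± 0.19 (adjusted p = 0.0172). CLV1A, a related receptor kinase, was not above the background at 0 h, with 10.6 and 6.39, and read 19.6 and 24.4 at 12 h, at least 1.45-fold higher (adjusted p = 0.0145).

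Fatty acid genes were called in both directions, 3 of 20 probe sets higher and 3 lower (15% each, against 7.95% and 16.4% of all probe sets). Only 1 rise was called without either 0 h array or without 12 h replicate 1. The falls were chloroplast desaturases. FAD7-2, which makes linolenic acid in the plastid, read 82.3 and 140.0 at 0 h and 16.1 and 22.4 at 12 h, and fell by 2.50 ± 0.30 (adjusted p = 0.000781). FAD6.1, the plastid omega-6 desaturase, fell by 1.37 ± 0.18, from 113 and 112 to 44.4 and 42.9 (adjusted p = 0.00114). Both kept the call without each of the 4 arrays. ACCA-1, a subunit of acetyl-CoA carboxylase, rose by 0.74 ± 0.16, from 74.7 and 76.5 to 133 and 119 (adjusted p = 0.0155).

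The sugar transporters of the SWEET family, a list put together after the values were seen, had 1 of 5 probe sets higher and 1 lower. Each made up 20% of the list, against 7.95% and 16.4% of all probe sets. SWEET17 read 27.9 and 25.9 at 0 h and 73.5 and 59.3 at 12 h (an increase of 1.30 ± 0.32, adjusted p = 0.0261), and SWEET34 190.0 and 197 at 0 h and 72.8 and 84.6 at 12 h (fell by 1.30 ± 0.27, adjusted p = 0.0123). Of 16 abscisic acid and LEA probe sets 3 fell and 1 rose. The share lower, 18.8%, was near the 16.4% of all probe sets, and the falls numbered 1 without 0 h replicate 1 or 12 h replicate 1 and 5 without 12 h replicate 2. The rise was lost without either 12 h array. PM35, of the maturation protein group, read 96.7 and 59.0 at 0 h and 16.6 and 10.1 at 12 h (adjusted p = 0.00293).

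None of 10 ribosomal protein probe sets and none of 13 protein degradation probe sets passed the limma test at 12 h, with medians of 0.17 and -0.03. At an unadjusted p under 0.05 there were 1 and 0 of them, by limma and by the methods' t-test alike. After centring 2 of the ribosomal protein probe sets and 1 of the protein degradation probe sets were called higher. With 12 h replicate 2 omitted 2 ribosomal protein probe sets were called higher, and with 12 h replicate 1 omitted 1 was called lower and 1 protein degradation probe set higher.

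The study had designed real-time PCR assays for 16 transcripts of the time course, and these also served as a named set here. All 16 were tested on the arrays, 2 were called higher, 10 lower and 4 in neither direction. Over all probe sets tested, 7.95% were called higher and 16.4% lower. The set was chosen on these arrays and is not independent evidence of its direction. Shown are the primers (5' to 3', in lower case) of the assays whose array values changed most in each direction, as the sequences that mark the transcripts measured.
ZIM motif family protein, sense primer: cactgccaataattcggttca
ZIM motif family protein, antisense primer: gctgccatgtgattgcttgt
WRKY transcription factor, sense primer: ggccatcaaggatcaccataat
WRKY transcription factor, antisense primer: ggctccaaggatgtctttctga
No apical meristem (NAM) protein-like, sense primer: ggaagtggccaagacaacat
No apical meristem (NAM) protein-like, antisense primer: tgctttctttgcatccattg
Beta-glucosidase, sense primer: tctgaaaatggcatggatga
Beta-glucosidase, antisense primer: caatgccaaaccttgatgtg
plant-type cellwall loosening relative gene, sense primer: tccatcaaagggtccaaaac
plant-type cellwall loosening relative gene, antisense primer: ccatcactggtggtgacttg

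The WRKY factor of this set read 139 and 167 at 0 h and 33.4 and 36.8 at 12 h (fell by 2.12 ± 0.25, adjusted p = 0.000722). The NAM-like NAC factor went from 149 and 136 to 39.4 and 35.5 (fell by 1.93 ± 0.18, adjusted p = 0.000225). Both showed close replicates and no overlap between the times, and 31% of all probe sets tested also lay lower at 12 h without overlap. Beta-glucosidase, which releases glucose from glucosides, rose by 1.41 ± 0.18, from 217 and 205 to 582 and 538 (adjusted p = 0.000995), and the wall-loosening gene by 1.04 ± 0.18, from 64.6 and 59.3 to 133 and 121 (adjusted p = 0.00495). A homeodomain leucine zipper (HD-Zip I) factor fell from 521 and 509 to 166 and 228 (adjusted p = 0.00164), and a pectinesterase from 164 and 192 to 56.2 and 43.7 (adjusted p = 0.00300). The 4 without a call were an elicitor-inducible cytochrome P450, a HEX-type homeobox factor, a glucosyltransferase and a kinase of phosphoenolpyruvate carboxylase, with log2 changes from -0.91 to -0.11.

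The 12 h arrays were also compared with those of 6 h and of 24 h. Against 6 h, 4358 probe sets were higher at 12 h (15.3%) and 5326 lower (18.6%), together 33.9%, and against 24 h 5654 were higher (19.8%) and 3446 lower (12.1%), together 31.9%. Quantile normalization gave 5684 higher and 4599 lower against 6 h and 4967 higher and 3940 lower against 24 h, and centring left 4056 higher against 24 h, fewer than were lower. These contrasts share the 12 h arrays with the comparison with 0 h, and the values are set side by side. With 12 h replicate 2, 6 h replicate 1 or 6 h replicate 2 left out, the calls against 6 h numbered 6147, 4911 and 5212, and without 24 h replicate 2 those against 24 h numbered 4695. Phenylpropanoid and flavonoid genes were lower than at 6 h. Of 47 flavonoid probe sets 38 were lower than at 6 h and 0 higher, and all 12 probe sets of the entry enzymes were lower. G4DT had read 277 and 320.5 at 6 h, against 28.4 and 12.8 at 12 h. Its log2 change between the 2 times was -3.97 (adjusted p = 0.000250). Of 90 WRKY probe sets 46 were lower at 12 h than at 6 h. CIM1 had read 91.3 and 113 at 6 h and so rose between 6 h and 12 h by 3.03 (adjusted p = 0.00631). EXP1, GASA14 and LUXC, in contrast, did not pass the test between these times, with log2 changes of -0.35, -0.06 and 0.30.

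Against 24 h, 4 of 6 clock probe sets were lower at 12 h and 1, LUXC, was higher. LHY read 299 and 311 at 24 h, and 327 and 293 at 0 h. Its level at 12 h was lower than at 24 h by a log2 change of -3.80 (adjusted p = 5.53e-06). CAB3 read 1823 and 2180.2 at 24 h and MYB134 618 and 551, and LUXC 37.4 and 36.3. Of 14 photosynthesis probe sets 11 were lower at 12 h than at 24 h and 1 higher, and of 25 aquaporin probe sets 14 were lower and 2 higher. Several genes with a call against 0 h did not pass the test between 12 h and 24 h. For the ZIM motif transcript, with 26.2 and 24.1 at 24 h, the log2 change was 0.25 (adjusted p = 0.642). It was -0.56 for AOS1, 0.24 for WRKY56 and -0.30 for PPCK2, with adjusted p = 0.203, 0.495 and 0.253. Among the wall genes the xyloglucan endo-transglycosylase read 138 and 129.9 at 24 h (log2 change 2.93, adjusted p = 1.89e-05) and CIM1 398 and 445 (0.98, adjusted p = 0.267).

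**Figure D5:**
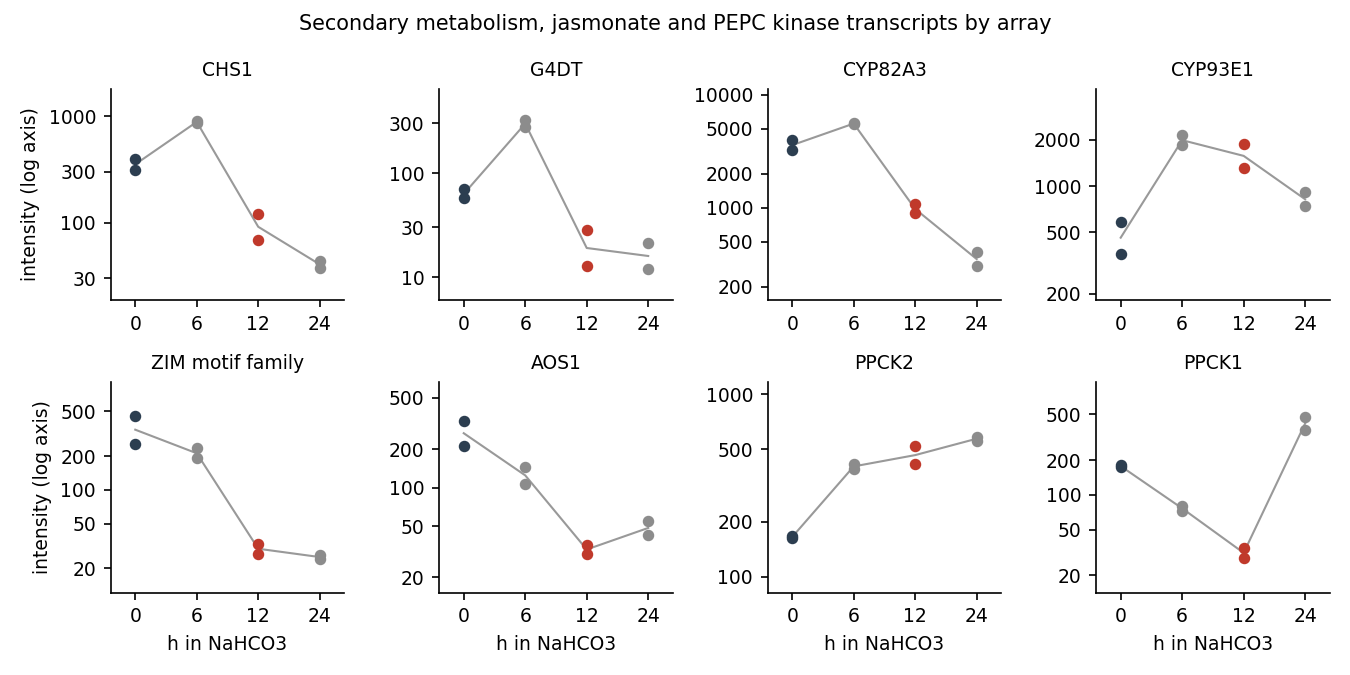
Deposited intensity (vertical axis, logarithmic) of 8 probe sets of secondary metabolism, jasmonate and phosphoenolpyruvate carboxylase kinases after 0, 6, 12 and 24 h in NaHCO3 (horizontal axis, evenly spaced), 1 point per array, with dark points for 0 h, red for 12 h and grey for 6 and 24 h, and a line through the geometric means. CHS1 and G4DT lie below both their 0 h and 6 h arrays at 12 h, PPCK1 falls to 28.3 and 34.9 and stands at 477 and 363 at 24 h, and PPCK2 lies above its 0 h arrays at 6, 12 and 24 h.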

How the data were processed

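Root apices of Glycine soja were hybridized to the Affymetrix Soybean Genome Array at 7 times of NaHCO3 treatment, with 2 arrays at each. The deposited values were intensities per probe set from the perfect-match model of dChip, with 1 array per time scaled by the authors to a common median and the other fitted to it by an invariant set. Here values under 1 were raised to 1 and log2 values of the deposited intensities were taken. Probe sets were tested if their mean lay above the 95th percentile of 23350 pathogen probe sets (an intensity of 15.1) and, after a spread filter that removed 160, 28566 of 37593 soybean probe sets remained. The number of arrays limits the precision.

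One limma model (limma 3.58.1, R 4.3.3) of the 7 groups was fitted to the 14 arrays, and calls required p under 0.05 and, after Benjamini-Hochberg adjustment, p under 0.15. The methods call the 2 arrays of a time independent biological replicates, and the labels name no separate cultures. The members and lists were chosen with earlier results of these data known. From the lists 23 matches of a symbol pattern were left out as exceptions, 2 of them after values were seen. The text names the 15 largest rises and falls among annotated probe sets called, up to 3 called members per list and direction with the smallest p, the clock genes and the transcripts with PCR assays (165 probe sets in all, not all of them described); the GASA and SWEET lists and other members described were chosen after their values were seen. Where a gene was not above background on either array of a time, its fold is a lower bound, the mean log2 level of the brighter group against the mean of, per array, the higher of the background and the value itself. Symbols came from the platform annotation and RefSeq (8677 probe sets had 1 symbol and 370 several), and descriptions from the study's annotation tables. The gene lists drew only on single symbols other than LOC numbers. Such symbols were held by 1676 probe sets, of which 1363 were tested, with 840 symbols, so the lists cover only part of each family. Promoter and protein sequences were not used here. The alternatives tried were other scalings, log2(value + 16), no filter, 4 arrays only, the replicate block, the methods' t-test, an intensity trend and the omission of each array.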

Additional observations from a re-analysis of the deposited data

Results flagged for a closer look

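Among the named genes described here, 12 had calls against 0 h in opposite directions at 12 h and 24 h. Most named genes were picked through their call at 12 h, and 159 of the 165 named probe sets were called. The difference between these times was itself called by limma for each. The other probe sets tested were not searched for such reversals, so no share over all probe sets stands beside this count. The log2 change at 12 h against 24 h was -6.70 for MYB134, -6.07 for chloroplast ferredoxin I, -3.97 for LHY, -3.82 for HSP23.9, -3.73 for PPCK1 and -3.52 for MYB118. It was -2.65 for SFERH-3, -2.64 for CYP71D10, -2.55 for PIP1-8, -1.50 for COP10 and -1.39 for BZIP77. For LHY this holds for 1 of 2 probe sets: the other was not called at 24 h against 0 h (log2 change -0.02, adjusted p = 0.958, limma). A sulfotransferase, which was higher at 12 h than at 0 h, differed the other way, by 2.98.

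For 8 of the named genes described here the same was found between 12 h and 6 h, and at 6 h they stood above 0 h. The log2 change at 12 h against 6 h was -3.97 for G4DT, -3.27 for CHS1, -2.99 for CYP93A1 and -2.66 for NADP-dependent malic enzyme. It was -2.51 for CYP82A3, -2.35 for ACS1, -2.15 for 4CL3 and -1.97 for 4CL4.

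The poly-A controls, which no comparison used, had a mean log2 level 0.773 higher at 12 h than at 0 h.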

How the results depend on the processing

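The 6944 calls at 12 h against 0 h (2271 higher, 4673 lower) became 4100 (1049, 3051) in a fit of the 4 arrays alone and 6 (2, 4) with the methods' t-test, which left no called named gene called. Quantile normalization gave 4386 higher and centring 4070 higher. With single arrays left out the calls ranged from 3957 to 6791, those higher from 1043 to 2345 and those lower from 2641 to 4446. Against 6 h, the 9684 calls (4358 higher, 5326 lower) became 974 (289, 685) with that t-test and ranged from 4911 to 10218, from 1961 to 4852 higher and from 2950 to 5366 lower, with single arrays left out. Against 24 h, the 9100 calls (5654 higher, 3446 lower) became 3387 (1801, 1586) in 4 arrays alone and 0 with the t-test (0 higher, 0 lower, and 4080 at an unadjusted p under 0.05), and ranged from 4695 to 8044, from 2880 to 4821 higher and from 1815 to 3314 lower. The causes were not tested, apart from the fewer arrays.

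Of 159 named probe sets called, 105 were called without each single array and 54 were not in at least 1 of these fits. Signs changed for 2 that were not called: the elicitor-inducible cytochrome P450 (log2 change -0.11) went to 0.0583 after quantile normalization, 0.00277 after centring and from -0.40 to 0.18 with 1 array left out, and ZTL1 (0.00 in 1 probe set) from -0.22 to 0.22 with 1 array left out (-0.22 without 12 h replicate 2 and -0.006 without 0 h replicate 1). The main fit did not pair samples by replicate number. Replicate differences correlated with r from -0.349 to 0.295 over the 21 pairs of times, and 6 exceeded 0.1. For 0 h with 12 h, r was 0.224. These correlations run over probe sets and cannot show whether the samples were paired. With the replicate block, 2248 were higher and 4580 lower at 12 h against 0 h, 4379 and 5269 against 6 h, 5596 and 3468 against 24 h, and 2 named calls were lost. Probe sets near the background of 15.1 limit what can be read from low values.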
